A study of Drosophila melanogaster with 2 samples.

Results

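The proteasome subunit genes of Drosophila melanogaster were taken as every protein-coding gene of the Ensembl BDGP6 annotation whose symbol starts with Prosalpha, Prosbeta, Rpn or Rpt and a digit. The rule found 48 of 13945 genes. By name they divide into 32 broadly expressed subunits and 16 paralogues whose names end in T or R, called testis-type here. The broad subunits comprised 7 alpha and 7 beta subunits of the core particle, 6 ATPases and 4 other subunits of the base of the regulatory particle, and 8 subunits of its lid. The data were ChIP-seq lists of regions for daughterless (da), from a fly line that stably expresses the protein with GFP at its C terminus, precipitated with an antibody against GFP. The material was whole embryos of both sexes, 0 to 24 h old, and there was 1 group of 2 biological replicates, numbered 2 and 3, from the same line. The labels do not give the promoter that drives the tagged gene or say whether untagged da remained. A control was used in calling and was not analysed here, and no other condition was compared. Each list mixes all tissues and ages of the collection, and the labels single out no male germline.

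The core particle is a barrel of stacked rings. Its alpha rings gate the entrance and its beta rings hold the peptidase sites. The regulatory particle binds ubiquitin chains, and its Rpt ATPases unfold the substrate while the lid removes the ubiquitin. In flies, several subunits have a second copy expressed in the male germline. Daughterless is a class I basic helix-loop-helix protein that pairs with tissue-specific partners and binds E-boxes, written CANNTG. The cap'n'collar factor cnc with its Maf partner is known as an activator of proteasome genes in flies. Many fly housekeeping promoters carry TATCGATA, the DNA replication-related element (DRE) known to be bound by DREF, whose letters overlap those of the BEAF-32 insulator sequence.

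Of the motifs searched, TATCGATA had the widest gap in share between promoters of broad and testis-type genes, so 7 of its occurrences are shown as 30 bases on the strand of the gene, 5′ to 3′, with TATCGATA in capitals (dm6, Release 6 reference).
Prosalpha6: cccgaatccctTATCGATAcccgatacaca
Prosbeta2: ccatgaatataTATCGATAcaatatcgatt
Prosbeta6: gtatgtataccTATCGATAacgtttaagca
Rpt5: atcgctgtcacTATCGATAagcgccggcga
Rpn3: tgttatcggagTATCGATAtcgaaaaggct
Rpn7: gcggtataattTATCGATAattttggggtc
Rpn12: ttgttaaaataTATCGATAttaaagcacaa
They lie at chr2L:10221324-10221353 (Prosalpha6, plus strand), chr3L:14999930-14999959 (Prosbeta2, plus), chr3L:16610444-16610473 (Prosbeta6, minus), chr3R:23752819-23752848 (Rpt5, plus), chr2L:19051582-19051611 (Rpn3, plus), chr3R:22462033-22462062 (Rpn7, minus) and chr3L:16582801-16582830 (Rpn12, plus). The bases on either side of the octamer differ from gene to gene. The centre of the octamer lay at -12 bp from the start of Prosalpha6, at -6 for Prosbeta2, at -40 for Prosbeta6 and at -42 for Rpt5. It lay farther upstream, at -193 and -212, in Rpn3 and Rpn12, and inside the transcribed sequence of the gene itself, at 7 bp, in Rpn7. The stretches shown for Rpt5 and Rpn3 overlap annotated exons of the other genes RanBP3 and l(2)37Bb. Those of Prosalpha6, Prosbeta2 and Rpn7 overlap an exon of the gene itself, and those of Prosbeta6 and Rpn12 overlap none.

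One kind of contrast between a broad gene and its testis-type copy is shown by the 80 bases upstream of 1 such pair, which overlap no annotated exon. Of 16 pairs, 6 had the octamer in the promoter of the broad gene alone, as here, and 10 had it in neither.
Prosalpha6: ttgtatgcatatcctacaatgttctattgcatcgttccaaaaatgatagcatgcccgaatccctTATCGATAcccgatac
Prosalpha6T: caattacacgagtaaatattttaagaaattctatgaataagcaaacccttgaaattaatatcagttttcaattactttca
The first is chr2L:10221271-10221350 and the second chr2L:13231959-13232038, both on the plus strand of dm6, and capitals mark TATCGATA. Neither stretch of 80 bases holds CANNTG, but the longer promoter window searched below holds it in both genes. Prosalpha6 had a region of the relaxed list within 500 bp of its start and Prosalpha6T had none, as given below with the other pairs. The summit of that region lay 147 bp upstream of Prosalpha6, outside the bases shown, and 12 bp from the start of Npc1a.

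The strongest summit at any subunit gene lay downstream of Rpn5, and the bases from 50 bp before to 50 bp after it are shown because the highest value of the gene set rests on them.
Rpn5: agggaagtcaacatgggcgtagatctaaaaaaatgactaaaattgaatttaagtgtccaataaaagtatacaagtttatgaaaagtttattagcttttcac
They are chr3R:5791665-5791765, plus strand of dm6, and overlap no annotated exon. The window holds neither CANNTG nor TATCGATA, and 28.7% of its bases are G or C.

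Lists of 3 kinds were used. A thresholded list of 1941 peaks had passed the authors' filter on agreement between replicates, and relaxed lists of 30000 regions were deposited for the pooled reads and for each replicate. A region of a relaxed list is called a candidate here, since these lists hold peaks together with background, and its presence does not show binding. The signal is the score per region in the deposited lists, in the authors' units. It is taken here as the height above control, since the sources used here do not name the caller. Pooled signals run higher than those of single replicates. Signals are used to describe and rank within a list, and those of the 2 replicates are also set side by side without rescaling. The replicate scales differ: the lowest signal was 9.32 in replicate 2 and 11.3 in replicate 3. Among the 1941 highest regions of each, the lowest was 32.0 and 35.4. Equal signals therefore need not mean equal ranks. A gene was counted when a summit fell inside it or at most 1000 bp beyond its ends. Read depth is unknown, because the lists hold no read counts. As a guide to the strength of the lists, q was 0.01 or less in 3568 regions of replicate 2 and in 2964 of replicate 3. Each share has a 95% Wilson interval, taken over genes or summits and covering counting error only. No test was run, since genes are not replicates of a condition.

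Thresholded peaks were found at 8 of the 48 genes (16.7%, interval 8.70 to 29.6), beside 16.1% of all protein-coding genes, so the family as a whole was close to the background. All 8 were broad subunits, 8 of 32 (25%, interval 13.3 to 42.1), and none of the 16 testis-type genes had one (interval 0 to 19.4). Peaks were present at 0 of 7 alpha genes, 1 of 7 beta genes, 1 of 6 base ATPase genes, 2 of 4 other base genes and 4 of 8 lid genes. The intervals of these small classes overlap widely, from 0 to 35.4% for the alpha genes and from 21.5 to 78.5% for the lid genes. By comparison, 55 of 88 cytosolic ribosomal protein genes (62.5%, interval 52.1 to 71.9) and 7 of 32 vacuolar ATPase genes (21.9%, interval 11.02 to 38.8) had a peak. The broad proteasome genes stood below the ribosomal protein genes, with intervals that do not overlap, and within the interval of the vacuolar ATPase genes. Those 2 lists were not divided into broad and testis-type genes, so all 48 proteasome genes are the closer match. Their 16.7% also stood below the interval of the ribosomal protein genes and within that of the vacuolar ATPase genes. The count of 8 depended on how summits were assigned: it was 2 without the 1000 bp on either side, and 4 when each summit went to the gene with the nearest start site. The share of all genes fell too, to 6.53% and 11.5%.

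Ranking each replicate alone gave similar numbers. Among the 1941 highest regions of replicate 2, 6 members had a summit (background 16% of genes), and among those of replicate 3, 7 members did (background 16%). Rpn2, Rpn5 and Rpn13 were reached in both replicates, Rpn2 at a different summit in each. Rpt5 and Rpn3 were reached in replicate 2 alone, and Prosbeta1, Rpn6 and Rpn8 in replicate 3 alone. Each of the single lists also reached 1 gene with no thresholded peak, which was Rpn9 in replicate 2 and Prosalpha3 in replicate 3. A looser rule, a pooled region with q of 0.01 or less, gave 12 members (background 25.5%), again all of them broad. It added Prosalpha3, Prosalpha5, Prosbeta6 and Rpn9 to the 8, the members of next highest signal.

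**Figure D1:**
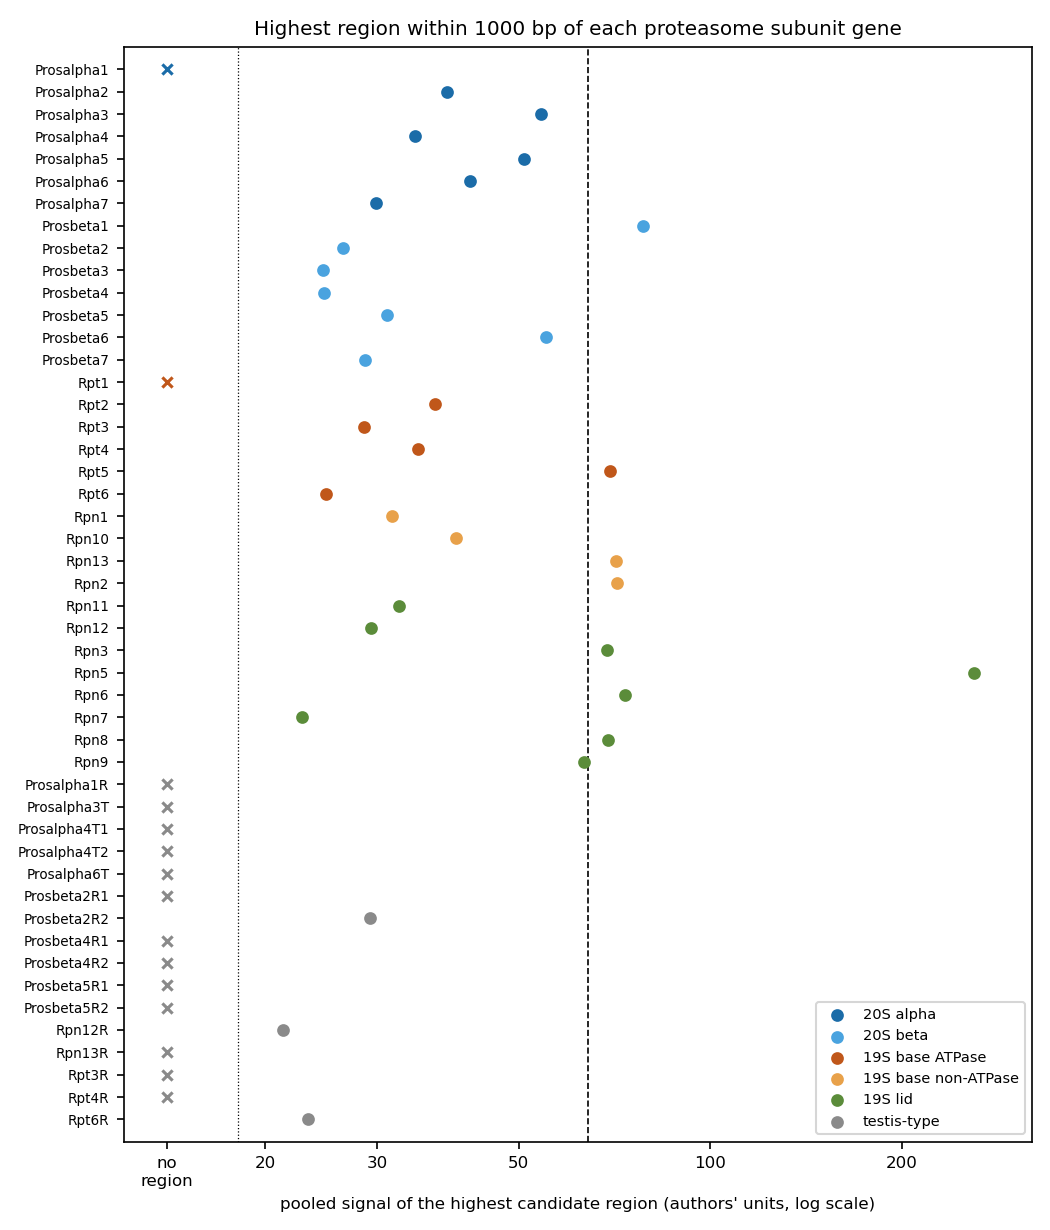
Pooled signal of the highest candidate region within 1000 bp of each of the 48 genes, in the authors' units on a log scale and coloured by class. The dashed line is the lowest thresholded signal (64.2), the dotted line the lowest signal of the relaxed list (18.1), and a cross marks a gene with no region. Most broad genes lie between the lines, 8 lie beyond the dashed line, and 13 of 16 testis-type genes have no region.

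In the beta ring, Prosbeta1, the caspase-like peptidase, was the only gene with a peak. Its signal was 26.7 in replicate 2, 48.9 in replicate 3 and 78.4 pooled, which ranked 1232 in the list, so the value leaned on replicate 3. The summit, at position 16014840 of chromosome arm 2R, lay 53 bp upstream of the start of Prosbeta1, with no start site of another gene nearer. The tryptic and chymotryptic peptidase genes, Prosbeta2 and Prosbeta5, had candidates only, of 26.5 and 31.1 pooled. Prosbeta2 had 11.6 in replicate 2 and no region within 200 bp in replicate 3, while Prosbeta5 had 13.6 and 13.3. Prosbeta6, a structural subunit of the ring, came closest to the threshold among the others at 55.3 (24.0 and 26.5 in the replicates), at a summit 40 bp from the start of CG4098. The structural genes Prosbeta3, Prosbeta4 and Prosbeta7 had 24.7, 24.7 and 28.7, near the weaker end of the family.

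In the alpha ring no gene reached the threshold, but 6 of 7 had a candidate. Prosalpha3 had 17.1 in replicate 2 and 39.3 in replicate 3, with 54.1 pooled. Its summit was 24 bp from the start of CG10543 and 1296 bp from its own. At its own promoter Prosalpha3 had a weaker region of 27.1. Prosalpha5 had 20.1 and 25.3, with 50.96 pooled, and its summit was 61 bp upstream of its own start. Prosalpha6 had 19.4 and 28.9, with 42.0 pooled, at a summit 12 bp from the start of Npc1a, a cholesterol transport gene. Prosalpha2, Prosalpha4 and Prosalpha7 followed at 38.6, 34.3 and 29.8. These 6 genes therefore ranged from 29.8 to 54.1. The replicates differed widely at Prosalpha3 and at Prosalpha4, which had 32.6 in replicate 3 and no region within 200 bp of that summit in replicate 2.

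Of the base ATPases, which form the unfolding ring, Rpt5 alone had a peak. It had 32.4 in replicate 2 and 35.3 in replicate 3, with 69.5 pooled and rank 1631. The replicates were nearly equal, and the summit was 6 bp from the start of Rpt5 itself, at position 23752870 of 3R. Rpt2, Rpt4, Rpt3 and Rpt6 had candidates of 36.9, 34.8, 28.6 and 24.9. Rpt1 had no pooled region, and its highest region in replicate 2 was of 10.3, close to the lowest signal of that list (9.32). Rpt1 and Prosalpha1, named after their values were seen, were the only broad genes without a pooled candidate.

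The other base genes include the scaffolds Rpn1 and Rpn2 and the ubiquitin receptors Rpn10 and Rpn13. Rpn13 had 34.6 in replicate 2 and 35.6 in replicate 3, with 71.2 pooled and rank 1559. Its summit, at 13960647 of 2R, lay 243 bp upstream of Rpn13 and 28 bp from the start of CtsL1, which encodes the lysosomal protease cathepsin L. The 2 genes share this summit, and the lists cannot assign it to either. Rpn2 had 2 summits, both beyond its 3′ end, at 4315 and 4517 bp from its start. The first had 34.7 in replicate 2, no region within 200 bp in replicate 3, and 71.4 pooled. The second had 21.5 and 44.6, with 66.2 pooled and rank 1816. Each of them was higher in a different replicate, and both were nearer to the start of rdog, at 283 and 81 bp. At its own start, Rpn2 had only a candidate of 36.0. Rpn10 and Rpn1 had candidates of 39.8 and 31.7.

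The highest value of the family was at a lid gene. Rpn5, a scaffold subunit of the lid, had 1 summit on each side. The one downstream had 114.7 in replicate 2 and 143.5 in replicate 3, with 259 pooled and rank 67, and was high in both replicates. It lay 2222 bp from the start of Rpn5 and 164 bp from that of Hpf1, a factor of histone ADP-ribosylation. The one upstream had 60.6 and 50.03, with 112.5 pooled and rank 538. It lay 275 bp upstream of Rpn5, in an intron of the histone acetyltransferase gene Hat1 and 144 bp from the start of Hat1. Thus both Rpn5 summits had a start site of another gene nearer than that of Rpn5. Of the 10 member summits, these 2 alone ranked among the stronger 970 of the thresholded list.

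Rpn3, Rpn6 and Rpn8 had weaker peaks. Rpn3, a scaffold subunit of the lid, had 45.5 in replicate 2 and 24.6 in replicate 3, with 68.8 pooled and rank 1662, 65 bp upstream of its own start. Rpn6, whose product in yeast links lid to core, had 31.8 and 43.6, with 73.4 pooled and rank 1441. Its summit was in an intron of Rpn6, 77 bp upstream of an internal start site of the same gene. Rpn8, the inactive partner of the lid deubiquitinase, had 26.2 and 40.8, with 69.0 pooled and rank 1649. That summit was in an intron of Rpn8, 232 bp upstream of one of its start sites and 93 bp from the start of the kinase gene Slik. Rpn9 fell just outside the list at 63.4 and rank 1993, with 40.8 in replicate 2 and 19.8 in replicate 3. Rpn11, the deubiquitinase itself, had a candidate of 32.4, and Rpn12 and Rpn7 had 29.3 and 22.8. The lowest broad gene with a region, Rpn7, and the highest, Rpn5, are thus both lid genes.

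The member summits lay at promoters, though often at those of neighbours. All 10 lay within 500 bp of some protein-coding start site (interval 72.2 to 100%), beside 55.1% of the 1941 summits. The members are short genes, and a summit was counted for lying near 1 of them, which bears on this share. Counting genes, 7 members had a peak within 500 bp of a start site of their own (background 10.3%). Yet only 4 of the 8 genes, Prosbeta1, Rpt5, Rpn3 and Rpn6, had a summit nearest to their own start, beside 63.1% of all genes with a peak. The signals were modest. The median of the highest peak per gene was 71.3 over the 8 members, 91.6 over all 2249 genes with a peak and 110.5 over the ribosomal protein genes.

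**Figure D2:**
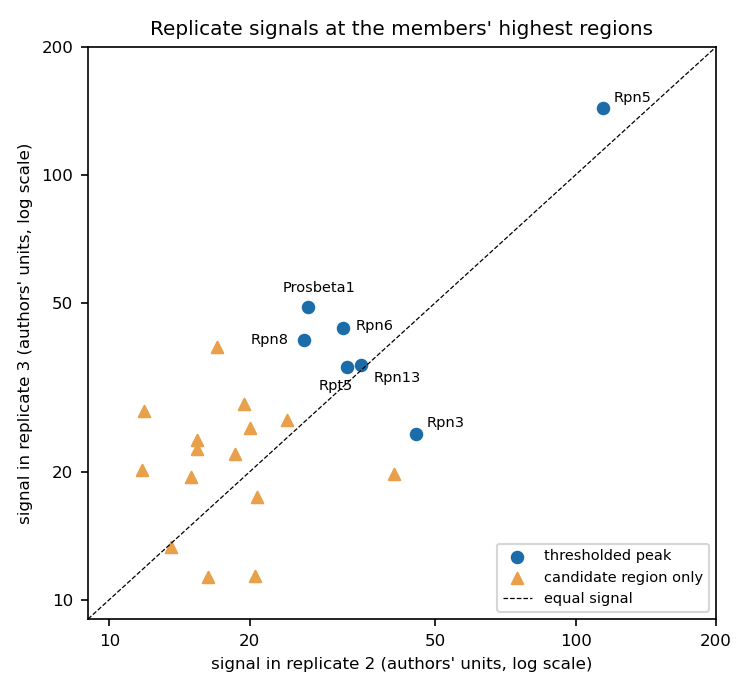
Signal in replicate 3 against signal in replicate 2 at the highest pooled region of the 22 members that had a replicate region within 200 bp in both, on log scales in the authors' units. Genes with a thresholded peak are circles with names, and the dashed line marks equal signal. Of the 22, 16 lie above the line, and Rpn2 is not drawn because its highest region had no match in replicate 3. The share of all genes above the line was not computed.

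The replicates gave like but not equal values. Over the 9 member peaks matched in both, the median log2 ratio of replicate 3 to replicate 2 was 0.32 with an SD of 0.60, and 7 of 9 were higher in replicate 3. Over 1928 thresholded peaks the median was 0.18 and the SD 0.59. Peaks at large thus also ran higher in replicate 3, and the members varied between replicates about as much as other peaks. Of the 10 summits, 7 had a q of 0.01 or less in both replicates. The shares of all thresholded peaks with such a q in both, or with a higher signal in replicate 3, were not computed. Over the highest regions of 22 members, Spearman's rho of the replicate signals was 0.485, a description across genes that share both libraries.

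The 2 kinds of gene differed most among candidates. A pooled candidate lay at 30 of 32 broad genes (93.8%, interval 79.9 to 98.3) and at 3 of 16 testis-type genes (18.8%, interval 6.59 to 43.0), beside 72.5% of all genes. The broad share was above the background and the testis-type share below it, and their intervals do not overlap. In replicate 2 the counts were 31 and 2 (background 72.7%), and in replicate 3 they were 29 and 3 (background 74%). The division was therefore present in both replicates. Within 500 bp of a start site of the gene, 26 of 32 broad genes and 1 of 16 testis-type genes had a candidate (background 51.6%). By the pooled rule within 1000 bp, 85 of 88 ribosomal protein genes (96.6%) and 24 of 32 vacuolar ATPase genes (75%) had a candidate. The high share of the broad genes is therefore not particular to them. The difference between broad and testis-type genes concerns presence in a list that includes background. Signals at the broad genes, with a median of 37.8 over 30 genes, were close to the median of 36.7 over all genes with a region.

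**Figure D3:**
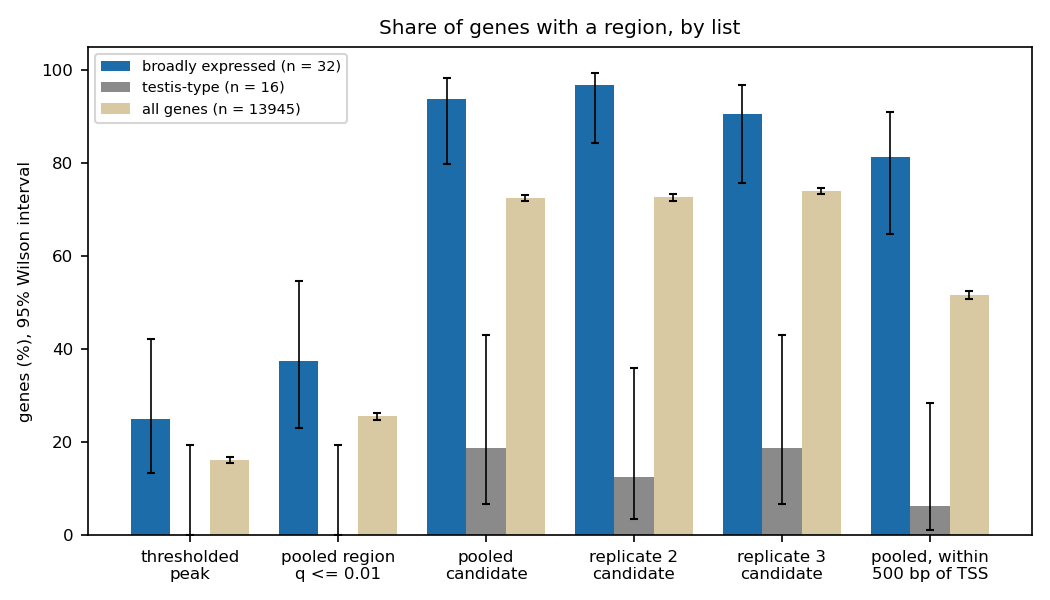
Share of genes with a region by 6 rules, for 32 broad genes, 16 testis-type genes and all 13945 protein-coding genes, with 95% Wilson intervals that cover counting error only. The broad bars stand above the testis-type bars by every rule, and the intervals are apart for the 4 rules on relaxed lists and for q of 0.01 or less.

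The 3 testis-type genes with a pooled candidate all had weak ones. Prosbeta2R2, a copy of the tryptic peptidase gene, had no matching region in replicate 2 and 26.9 in replicate 3, with 29.2 pooled and rank 10941. Its summit was 75 bp from the start of CG1116 and 204 bp upstream of its own. Rpt6R, a copy of a base ATPase, had 10.6 in replicate 2 and none in replicate 3, with 23.4 pooled and rank 18121. Rpn12R, a copy of a lid gene, had none in replicate 2 and 11.3 in replicate 3, with 21.3 pooled and rank 21963. None of the 3 was matched in both replicates at the same summit. Of the 16 genes, 12 had no region in any of the 3 relaxed lists, and 1, Prosbeta2R2, had regions in both replicate lists. Among the broad genes, 29 of 32 had regions in both. Taken singly, the list of replicate 2 reached 72.7% of all genes and that of replicate 3 reached 74.0%. The shares of all genes with a region in both lists or in none were not computed, so these counts have no background beside them.

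Set beside their broad counterparts, the 16 testis-type genes form 16 pairs with 12 broad genes. In 12 pairs only the broad gene had a candidate, in 3 both had one, in 1 neither did, and in 0 the testis-type gene alone did. Prosalpha6 with 42.0 and Prosalpha6T with no region, whose upstream sequences are shown above, are 1 of the 12. In the 3 pairs with both, the broad gene was higher at Rpn12 (29.3 against 21.3) and at Rpt6 (24.9 against 23.4), and lower at Prosbeta2 (26.5 against 29.2). Only 1 of the 12 broad genes with a testis-type copy, Rpn13, had a thresholded peak. The pair with no region was Prosalpha1 and Prosalpha1R. They are neighbours on 2R, and 87.0% and 99.2% of the positions in their windows start a 31-base word that occurs elsewhere in the genome. No other member exceeded 10.4%. Without these 2 genes, 30 of 31 broad genes and 3 of 15 testis-type genes had a candidate.

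Several properties of the genes moved with this division, and their part in it was not tested. The spans were alike, with a median of 1390 bp for the broad and 1282 bp for the testis-type genes. A start site of another gene lay in the window of 27 of 32 broad genes, 5 of 16 testis-type genes and 62.3% of all genes. With such a neighbour, 26 of 27 broad and 1 of 5 testis-type genes had a candidate, beside 80.2% of all genes. With none, the counts were 4 of 5 and 2 of 11, beside 59.7%. The order was the same on both sides of this split, with few genes in some of its cells. The highest candidate of a broad gene was nearest to that gene's own start in 15 of 30 cases. The same share over all genes with a candidate was not computed, so this count is not read as a trait of the family. No expression was measured in these samples.

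**Figure D4:**
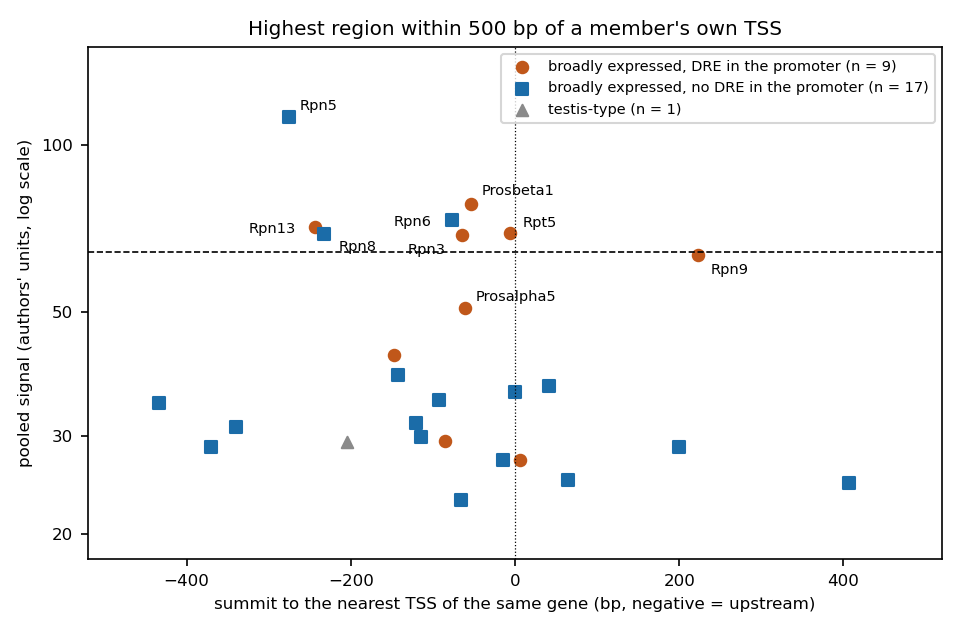
Pooled signal (authors' units, log scale) of the highest candidate within 500 bp of a member's own start site, against its distance in bp, where negative is upstream. The dashed line is the lowest thresholded signal (64.2), and of 26 broad genes 19 have the summit upstream. The highest value is 112.5 (Rpn5) among the 17 broad genes without DRE and 78.4 (Prosbeta1) among the 9 with it.

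Candidates at the members' own promoters lay mostly upstream of the start. Over 26 broad genes the median position was -71.5 bp and 19 of 26 were upstream, beside a median of -54 bp and 63.8% upstream over 7193 genes. Their median signal was 35.4, and 36.2 over all genes. Position and signal at these promoters were thus close to those over all genes.

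Promoters, taken from 250 bp before to 50 bp after the gene start, were searched for motifs as a description of sequence, where a match is not a bound site. TATCGATA on either strand was in 12 of 32 broad promoters (37.5%, interval 22.9 to 54.7) and in 0 of 16 testis-type promoters (interval 0 to 19.4), beside 9.36% of all promoters. With windows at every annotated start site of a gene, the counts were 12 and 1, beside 10.2% of all genes, and the intervals then overlap. It was in 26 of 88 ribosomal protein promoters and in 1 of 32 vacuolar ATPase promoters. The 12 genes were Prosalpha3, Prosalpha5 and Prosalpha6, Prosbeta1, Prosbeta2 and Prosbeta6, Rpt5, Rpn13, and Rpn3, Rpn7, Rpn9 and Rpn12, so every class of the broad genes was represented. Motif 1, another core promoter element of housekeeping genes, searched on both strands, was in 4 broad promoters (Prosalpha2, Prosalpha4, Prosbeta3 and Rpn1), in 0 testis-type promoters and in 4.50% of all. No member had both.

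The other motifs separated the genes less. GAGAG on either strand was in 3 of 32 broad and 6 of 16 testis-type promoters, beside 29.7%, with intervals of 3.24 to 24.2% and 18.5 to 61.4% that overlap. TGACNNNGC on either strand, the antioxidant response element recognised by cnc and Maf, was in 5 broad promoters (Prosalpha2, Prosbeta3, Rpt6, Rpn1 and Rpn7) and in that of Prosbeta4R2, beside 8.63%. TATAAA on the sense strand was in 9 and 4, beside 32.1%, and the initiator core TCAGT on the sense strand in 13 and 5, beside 36.1%. CANNTG was in 23 broad and 11 testis-type promoters, beside 77.2%. Its form CAGCTG, counted within it, was in 1 of each kind, beside 17.7%. The E-box counts of both kinds were thus below or near those of all promoters.

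**Figure D5:**
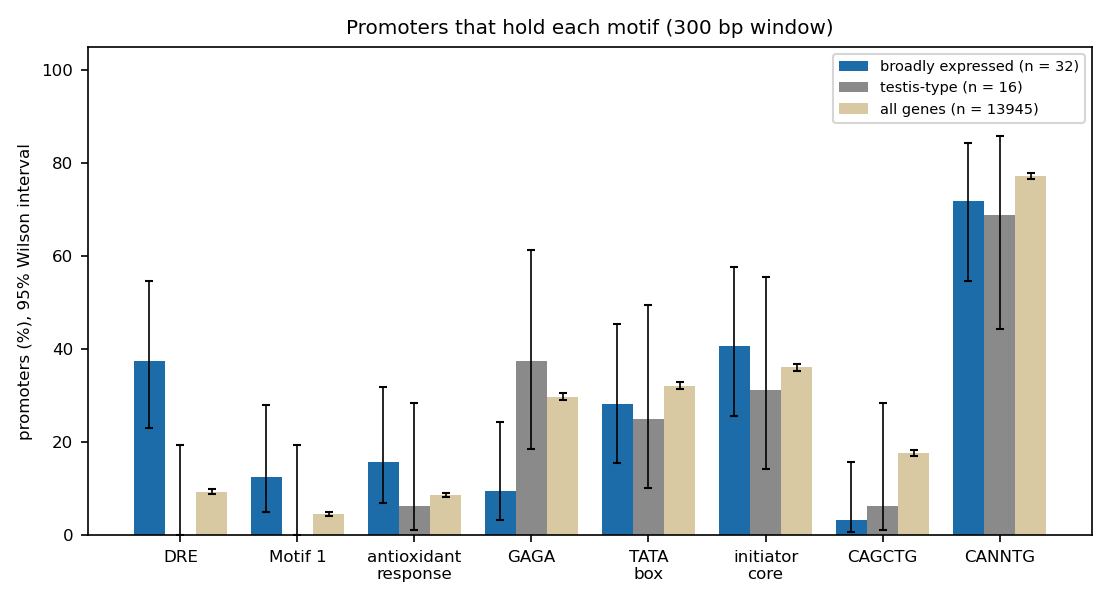
Share of promoters (250 bp before to 50 bp after the gene start) that hold each motif, for 32 broad genes, 16 testis-type genes and all 13945 genes, with 95% Wilson intervals for counting error. DRE is in 37.5% of broad, 0% of testis-type and 9.36% of all promoters, and its broad and testis-type intervals are apart with this window.

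A candidate lay within 500 bp of a start site of 9 of the 12 broad genes with TATCGATA and of 17 of the 20 without it. The octamer was searched at the gene start alone, but a candidate could lie near any annotated start site of the gene. At Rpn6, Rpn8 and Prosbeta7, for example, which lacked the octamer in the promoter, the candidate lay near an internal start site. Over all genes the shares were 73.1% with the octamer and 49.4% without. The candidates were higher with it, with a median of 63.4 over 9 genes (27.1 to 78.4) beside 31.7 over 17 genes (23.0 to 112.5), and the ranges overlap. Thresholded peaks within 500 bp of a start of the gene were at 4 of 12 broad genes with it and 3 of 20 without, beside 15.2% and 9.84% of all genes with and without it. In the 9 genes the summit lay 30 to 193 bp from the octamer, with a median of 97 bp. Rpn13 and Rpt5 were nearest, at 30 and 36 bp, and Rpn9 was farthest at 193 bp.

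At the summits themselves E-boxes were sparse. From 50 bp before to 50 bp after each member summit, CANNTG was in 2 of 10 windows (20%, interval 5.67 to 50.98), beside 42.6% of all 1941. The window of Prosbeta1 held the form CAGATG, present in 6.18% of all windows. The window of Rpn8 held the form CAGCTG, present in 10.5% of all windows. The form CACCTG was in 0 member windows and in 5.31% of all. The form CACGTG was in 0 member windows and in 1.44% of all. The octamer TATCGATA was in 2 of 10 windows, those of Rpt5 and Rpn13, beside 2.52% of all. With 10 windows these intervals are wide, and the interval for CANNTG includes the share of the whole list. The 2 windows of Rpn2 come from overlapping regions. The window G+C content had a median of 40.6% for members and 38.6% for all.

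Genes that work with the proteasome were looked up from 2 lists. Of 13 partners, 12 were in the annotation, and all 12 had a candidate (background 72.5%) and 4 a thresholded peak (background 16.1%). Keap1, an adaptor that restrains cnc, had 78.8 in replicate 2 and 56.4 in replicate 3, with 132 pooled and rank 378. That summit lay at -826 bp from the start of Keap1, and the start of kuk was nearer, at 527 bp. Uch-L5, the deubiquitinase that docks on Rpn13, had 24.0 and 52.4, with 79.6 pooled, at a summit 28 bp from the start of Jarid2. REG, an alternative cap of the core, had 38.5 and 26.4, with 69.5 pooled. The fourth, cnc itself, had 23.2 and 35.2, with 65.0 pooled and rank 1897, near the end of the list. Of 13 ubiquitin and unfoldase genes, 11 were in the annotation, of which 11 had a candidate and 5 a peak, beside the same 72.5% and 16.1% of all genes. RpS27A, which encodes ubiquitin fused to a ribosomal protein, had 103.9 in replicate 2 and 102.1 in replicate 3, with 209.3 pooled at a summit 19 bp upstream of its start and as near to that of Ip259. The ubiquitin-conjugating enzyme gene eff had 64.5 and 35.0, with 99.2 pooled. The polyubiquitin gene Ubi-p63E had 51.6 and 29.5, with 82.0 pooled, 12 bp from the start of Ccz1. Of 5 genes of the male germline, none of which encodes a subunit, 0 had a peak and 4 had a candidate, beside 72.5% of all genes with one. Their signals, 18.3 to 20.2, were near the lowest of the list. With 5 genes no share can be read closely.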

How the data were processed

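Da-GFP ChIP-seq of 2 biological replicates was analysed from region lists in dm6. The signal of each region, as deposited by the authors, is taken as peak height above control, and the −log10 q of each region was also deposited by the authors. Per the deposited notes, relaxed lists came from each replicate and from pooled reads, with a control. Not given in the sources used here are the caller, the aligner, their versions and the filter's threshold. The dm3 lists were not used. Genes came from Ensembl release 115 (BDGP6 6.54) and sequence from Release 6. Summits were assigned to genes within 1000 bp with Python 3.11.15, numpy 2.4.6 and pandas 2.3.3, checked on planted summits, and replicate summits were matched within 200 bp. Members and lists were chosen with earlier results of these data known. Values are given for every member with a peak, the 5 next, and testis-type genes with a candidate. The 3 highest genes of each partner list are also given. The other members are named to account for each. Alternatives varied the assignment, list, replicate and window.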

Additional observations from a re-analysis of the deposited data

How the results depend on the processing

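No testis-type gene had a thresholded peak under any of the 10 alternatives run. For the gene span alone, the 500 bp rule and the stronger part of the list, the count of 0 was fixed in advance. These rules only narrow the main one. For all members, all of them broad in each case, the count of 8 (16.1% of all genes) became 2 with the gene span alone (6.53% of all genes), 4 with the nearest start site (11.5%), 1 in the stronger part of the list (8.78%) and 2 with the same summit among the highest regions of both replicates (10.96%). It was 11 within 2000 bp (19.6%), 12 with double the number of regions (26.8%), 7 within 500 bp of a start site (10.3%) and 8 by any base of the region (16.9%). Leaving out 1 replicate gave 6 to 7 (16.0% of all genes either way). The median distance to the member's own start, 237.5 bp, was 216 to 302 bp without 1 replicate. The E-box share of 20% was 12.5 to 22.2% without 1 replicate, 10% within 25 bp of the summit and 40% within 100 bp. Other alternatives were chosen after seeing the data. Candidates at broad genes numbered 22 with the span alone (51.9% of all genes) to 31 within 2000 bp (79.2%). The 3 testis-type candidates became 1 with the span alone, 1 within 500 bp of a start site (51.6%) and 1 in the stronger part of the relaxed list (56.3%), and 2 to 3 with single replicates. TATCGATA was in 8 broad promoters from 100 bp upstream (7.63% of all) and in 14 from 500 bp (11.4%), with 0 testis-type in both. At any annotated start site it was in 12 broad and 1 testis-type gene (10.2%). No paired analysis was possible because there is 1 group. Depth is unknown, so weak candidates cannot be told apart from background.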
